A study of Mus musculus with 4 samples.

Results

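Claudins and occludin are the membrane proteins that form the strands of tight junctions, the seals between neighbouring epithelial or endothelial cells. On the array used here, 10 of their genes (Cldn1, Cldn3, Cldn4, Cldn5, Cldn7, Cldn8, Cldn10, Cldn12, Cldn23 and Ocln) were read by 18 of 45101 probe sets, all those annotated with one of these symbols alone, out of 18193 genes named on the array. RNA was measured in dorsal skin at postnatal day 16 on single-colour Affymetrix Mouse 430 2.0 arrays, with 2 arrays of bitransgenic mice that overexpress deltaNp63alpha and 2 arrays of wild type mice. DeltaNp63alpha, made from the gene Trp63, is the p63 isoform that predominates in basal keratinocytes of stratified epithelia. Each array held RNA of another animal, since the titles number them as biological replicates (n = 2 per group throughout). The labels name neither the promoter that drives the transgene nor the second transgene, the strain, the sex or any inducing agent.

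In stratified epidermis, functional tight junctions sit in the granular layer, below the cornified layer, and they limit the loss of water and ions between cells. Each claudin spans the membrane several times, and its extracellular loops pair with those of claudins in the next cell. Some claudins tighten the seal and others form pores selective for charge, so the mix of claudins sets what can pass. Mice that lack Cldn1 lose water through the skin and die soon after birth, and Cldn1 has been reported as a p63 target gene.

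The genes are members of 1 family of junction proteins, but the set was chosen on the same signals, with their differences between genotypes already known. These differences are therefore given as a description, with no test. Signals are MAS5 probe set intensities on a linear scale, and each array had been scaled to a common mean. Differences are bitransgenic minus wild type in log2(signal + 16), with the standard error (SE) of a limma fit of all 45037 probe sets that are not controls. Folds were taken from the same values and therefore understate the change of dim probe sets. A probe set counted as measurable when its mean over the 4 arrays reached a signal of 57.0, the 40th percentile of the array, and 16 of the 18 did. The others were the single probe set of Cldn7 and one of the 4 for Cldn1.

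The arrays of a genotype were not equally alike. Over the 27022 probe sets past the filter, the correlation was 0.949 between the bitransgenic arrays and 0.918 between the wild type arrays, and it ran from 0.869 to 0.920 across genotypes. Of 4 Trp63 probe sets, 2 had signals of 4644 or more on both bitransgenic arrays and of 837.8 or less on both wild type arrays, while the others overlapped. The Y-linked gene Eif2s3y was high in bitransgenic replicate 2 and wild type replicate 1, so each genotype had 1 array with high Y-linked signal. Among the genes tested, 98 were higher and 206 lower in bitransgenic skin.

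Of the 18 probe sets, 11 were lower in both bitransgenic arrays than in both wild type arrays, 2 were higher in both, and 5 overlapped. Over all probe sets that are not controls, 19.3% were lower and 20.6% higher in this way. At the level of genes, each was read by its measurable probe set of highest mean, which placed 9 of them among the 13070 genes tested. As the contrast was known when the genes were chosen, no adjusted p is given for them. For the same reason, nothing is read from the counts of probe sets. Skin is a mixture of cells, and in such bulk samples fewer cells of a type and less RNA per cell cannot be told apart. The median difference of the 9 genes tested was -0.66, against 0.0053 over all genes.

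**Figure D1:**
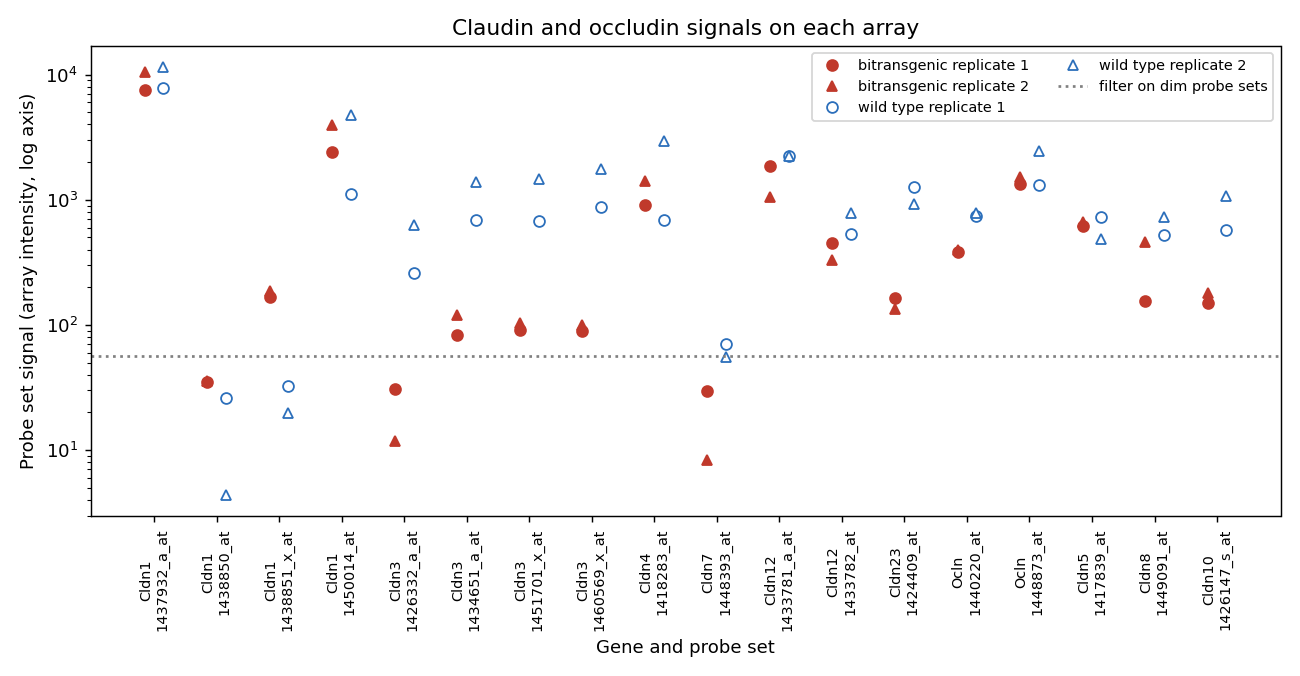
Signal of each claudin and occludin probe set on each array, on a log axis in units of array intensity, with bitransgenic arrays in filled red and wild type arrays in open blue symbols. The 4 Cldn3 probe sets, Cldn23 and Cldn10 lie clearly lower on both bitransgenic arrays and the dim Cldn1 probe set 1438851_x_at lies higher, while the brightest Cldn1 probe set, Cldn4 and Cldn5 overlap.

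Cldn3 and Cldn4 are neighbours in the mouse genome, with no other protein-coding gene between them on chromosome 5 in the RefSeq gene order of GRCm38.p6. Cldn1 lies on chromosome 16, where P3h2 alone separates it from Trp63, the gene of the transgene's protein. The 250 bases before the annotated starts of these 3 genes are shown because the neighbours Cldn3 and Cldn4 differed in their array values and because Cldn1 is the reported p63 target. They are RefSeq sequence of build GRCm38.p6, at chr5:134985964-134986213 on the plus strand for Cldn3, chr5:134946935-134947184 on the minus strand for Cldn4 and chr16:26371840-26372089 on the minus strand for Cldn1. Capitals mark matches, on either strand, to the GC box GGGCGG, bound by Sp and Krüppel-like factors, or to the E-box CAGGTG, bound by Snail and ZEB repressors.
Cldn3: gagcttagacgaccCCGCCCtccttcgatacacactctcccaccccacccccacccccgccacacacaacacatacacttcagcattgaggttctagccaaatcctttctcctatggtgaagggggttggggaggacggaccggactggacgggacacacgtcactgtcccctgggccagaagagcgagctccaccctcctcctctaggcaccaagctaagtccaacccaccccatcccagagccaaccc
Cldn4: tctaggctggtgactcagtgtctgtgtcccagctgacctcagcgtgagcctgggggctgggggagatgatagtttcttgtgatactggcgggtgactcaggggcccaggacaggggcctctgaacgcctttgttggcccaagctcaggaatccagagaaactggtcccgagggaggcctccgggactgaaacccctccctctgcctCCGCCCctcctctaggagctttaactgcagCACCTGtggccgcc
Cldn1: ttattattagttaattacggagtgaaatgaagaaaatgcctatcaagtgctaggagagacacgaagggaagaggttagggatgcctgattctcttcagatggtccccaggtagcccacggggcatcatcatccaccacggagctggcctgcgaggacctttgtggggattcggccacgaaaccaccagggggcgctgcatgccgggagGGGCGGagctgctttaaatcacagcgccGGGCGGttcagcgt

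Promoter entries were held for 8 of the 10 genes, 13 entries in all, and Cldn8 and Cldn23 had none. A GC box stood in 10 of the 13 windows of 250 bases, against 32.7% of 32851 mouse promoter windows of the same length, and the E-box stood in 3, against 17.2%. The E-box of Cldn4 began 14 bases before the start, and the Cldn3 window held none. The AP-2 site GCCNNNGGC stood in 3 windows, of Cldn12 and Ocln, against 13.7%. The p53-family decamer stood in 1 window, that of Cldn5, against 7.13%, and neither the Grainyhead site AACCGGTT nor the TATA box TATAAA in any, against 0.116% and 12.4%. All motifs were sought on both strands, and in 1 Ocln window the AP-2 match overlapped the GC box. Several windows belong to 1 gene and overlap, so they are not independent, and a match is a run of letters and not evidence of binding.

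Cldn3, a claudin that tightens the seal, had the largest difference of the genes. Its brightest probe set, 1460569_x_at, read 88.8 and 99.1 in bitransgenic skin, against 869.3 and 1767.7 in wild type skin. Both bitransgenic arrays were close together and far below both wild type arrays, which differed from each other. The difference was -3.52 ± 0.41 (SE), or 11.4-fold lower in bitransgenic skin. The other 3 probe sets of Cldn3 showed the same separation, with differences of -3.10 ± 0.44, -3.16 ± 0.44 and -3.54 ± 0.58. Their bitransgenic signals ran from 11.9 to 120.9, against 258.1 to 1478 in wild type skin. All 4 probe sets read the same gene in the same animals, and 2 of them carry the suffix _x_at, which marks probes that can also match other transcripts. In probe set 1426332_a_at both bitransgenic signals, 31.0 and 11.9, lay below the filter's signal, so the size of its difference depends on the constant of 16.

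Cldn4, the neighbour of Cldn3, is also a claudin of suprabasal epidermis and, like Cldn3, a receptor for an enterotoxin of Clostridium perfringens. Its single probe set, 1418283_at, read 911.2 and 1409.7 in bitransgenic skin, against 694.6 and 2952 in wild type skin. Both bitransgenic signals lay between the wild type ones. The difference was -0.34 ± 0.65, with a 95% interval from -1.91 to 1.24, so a change of 2-fold in either direction lay within it. The wild type arrays differed by 2.06 on the log2 scale, more than any of the differences between genotypes for Cldn4. Within replicate 1 the difference was 0.38 and within replicate 2 it was -1.06.

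Cldn1, the main barrier claudin of epidermis, gave readings that depended on the probe set. The brightest, 1437932_a_at, read 7584.1 and 10429 in bitransgenic skin, against 7772.9 and 11449.5 in wild type skin. The groups overlapped closely, with a difference of -0.085 ± 0.32 and a 95% interval from -0.85 to 0.68. The next, 1450014_at, read 2423.6 and 3948.1 in bitransgenic skin, against 1107.7 and 4746.8 in wild type skin. Here the wild type arrays spanned the bitransgenic ones, with a difference of 0.43 ± 0.66. Probe set 1438851_x_at read 166.3 and 186.4 in bitransgenic skin, against 32.3 and 19.8 in wild type skin. It was higher on both bitransgenic arrays, by 2.21 ± 0.45 or 4.62-fold, although both wild type signals lay below the filter's signal. Probe set 1438850_at read 34.7 and 35.5 in bitransgenic skin, against 26.0 and 4.4 in wild type skin, all of them below the filter's signal. Taking the mean of the measurable probe sets in place of the brightest turned the Cldn1 difference to 0.85.

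Cldn23, a claudin with a longer cytoplasmic tail than most, was read by 1424409_at. Its signals were 165.3 and 133.3 in bitransgenic skin, against 1254.5 and 924.3 in wild type skin. The arrays of each genotype were close to each other and did not overlap with the other genotype. The difference was -2.73 ± 0.32, or 6.64-fold lower in bitransgenic skin, with -2.81 within replicate 1 and -2.65 within replicate 2. The labels state nothing that same-numbered arrays share beyond the number, and another pairing of the arrays would give other values within pairs. Without bitransgenic replicate 1 the difference of Cldn23 was -2.87, and without bitransgenic replicate 2 it was -2.59.

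Cldn12, which lacks the PDZ-binding end by which other claudins hold scaffold proteins, was read by 2 probe sets. The brighter, 1433781_a_at, read 1857.4 and 1058.5 in bitransgenic skin, against 2219.5 and 2245.1 in wild type skin. The other, 1433782_at, read 447.9 and 332.7 in bitransgenic skin, against 532.0 and 786.5 in wild type skin. Both probe sets were lower on both bitransgenic arrays, by -0.66 ± 0.32 and -0.72 ± 0.34, and their 95% intervals included 0. The difference within replicate 1 was -0.25 and -0.24, and within replicate 2 it was -1.07 and -1.20. Cldn7, a claudin that binds the adhesion molecule Epcam, was dim, with signals of 29.7 and 8.3 in bitransgenic skin, against 70.0 and 55.9 in wild type skin. The groups did not overlap (-1.24 ± 0.49), but 3 of these 4 signals lay below the filter's signal, and Cldn7 was not among the genes tested.

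Occludin is no claudin but a member of the MARVEL family that joins the same strands, and its gene Ocln was read by 2 probe sets that differed. The brighter, 1448873_at, read 1341.8 and 1522.4 in bitransgenic skin, against 1319.3 and 2441.3 in wild type skin. It overlapped between genotypes, with a difference of -0.33 ± 0.34. The other, 1440220_at, read 385.8 and 400.1 in bitransgenic skin, against 736.6 and 780.8 in wild type skin. This probe set was 1.89-fold lower in bitransgenic skin (-0.92 ± 0.27), with arrays of each genotype close together and differences of -0.91 and -0.94 within replicates 1 and 2. The files do not give the part of the transcript that each probe set reads.

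Cldn5 is the claudin of endothelial cells and is needed for the blood-brain barrier. Its probe set, 1417839_at, read 619.7 and 670.4 in bitransgenic skin, against 732.4 and 484.5 in wild type skin. Both bitransgenic signals lay between the wild type ones, and the difference was 0.11 ± 0.31. The 11 endothelial markers, such as Pecam1 and Cdh5, had a median difference of 0.036, and their summed signal was 5312 to 6334 in bitransgenic skin, against 4156 to 5855 in wild type skin. None of these 11 passed in limma over all genes, and 2 had an unadjusted p below 0.05.

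Cldn8 and Cldn10 are known from kidney tubules, where Cldn8 tightens the distal tubule and Cldn10 forms ion pores, and CLDN10 is also needed in human sweat glands. Cldn10 was read by 1426147_s_at, with signals of 150.1 and 180.1 in bitransgenic skin, against 578.0 and 1080.4 in wild type skin. The groups did not overlap, and the difference was -2.16 ± 0.39, or 4.47-fold lower in bitransgenic skin. RefSeq lists 2 starts for Cldn10, and the suffix _s_at marks probes shared by several transcripts, which can include those of other genes. The reading therefore cannot be assigned to one transcript. Without bitransgenic replicate 1 the difference of Cldn10 was -2.04, and without bitransgenic replicate 2 it was -2.28. Cldn8, read by 1449091_at, had signals of 154.3 and 456.8 in bitransgenic skin, against 520.9 and 734.6 in wild type skin. It was lower on both bitransgenic arrays, but these differed by 1.47 on the log2 scale, more than the difference between genotypes of -1.16 ± 0.52.

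**Figure D2:**
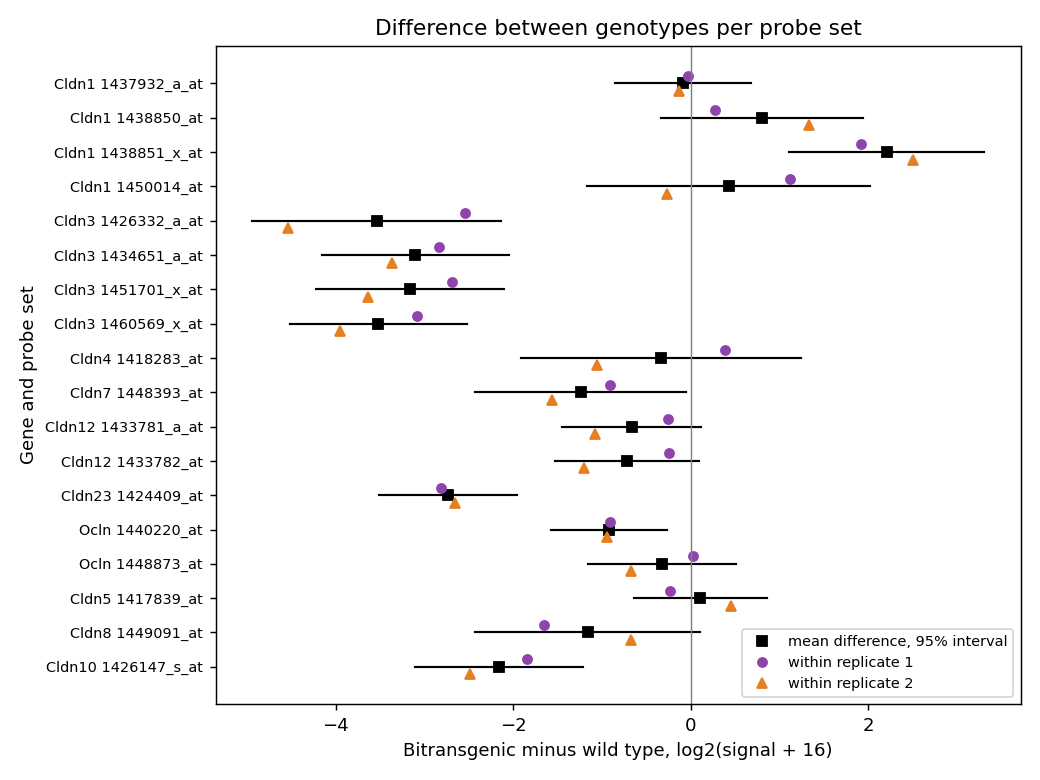
Difference between genotypes in log2(signal + 16) for each probe set, with the mean and its 95% interval in black, the difference within replicate 1 as purple circles and within replicate 2 as orange triangles. All 4 Cldn3 probe sets lie below -2 in both replicates, and Cldn4 and Cldn5 fall on either side of 0. Arrays are paired by replicate number alone.

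In the order of their differences, the 9 genes tested ran from Cldn3 through Cldn23, Cldn10, Cldn8, Cldn12, Cldn4, Ocln and Cldn1 to Cldn5. The 95% intervals of neighbours in this order overlapped throughout, and the steps between neighbours were not tested. Of all genes tested, 0.803% had a difference as low as that of Cldn3, 1.33% as low as that of Cldn23, 2.20% as low as that of Cldn10 and 6.86% as low as that of Cldn8. Cldn1 stood at 42.4% and Cldn5 at 59.0%.

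The genes whose values over the 4 arrays were most like those of Cldn3 were Stox1, Gabrp and Mab21l4, measured by the root mean square distance of log2 values centred on each gene's mean. The distances were 0.147, 0.155 and 0.155 on the log2 scale. Gabrp, for example, read 241.5 and 255.4 in bitransgenic skin, against 1700.4 and 4560.1 in wild type skin. For Cldn5, the gene with the highest difference of the 9, the nearest were Zswim6, Pias3 and Prrc2b, at 0.0089, 0.019 and 0.020. With 4 arrays many genes share a pattern, so these names describe likeness alone.

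The other genes of the pathway were counted in lists by role, with 56 genes past the filter. Of these, 2 fell and none rose in limma with Benjamini-Hochberg adjustment over all genes, and 15 had an unadjusted p below 0.05. Over all genes tested, 1.58% fell, 0.75% rose and 16.7% had an unadjusted p below 0.05. The groups did not overlap for 23 genes lower and 7 genes higher in bitransgenic skin, against 24.9% and 23.9% of all genes tested. The median difference of the 56 genes was -0.27.

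Of 21 scaffold genes, which tie junction strands to actin and to polarity proteins, 1 fell, none rose and 20 did not pass, with a median difference of -0.14. The one that fell was Cgn, which codes for cingulin, a link between junction and cytoskeleton. Its signals were 256.7 and 171.4 in bitransgenic skin, against 793.7 and 762.4 in wild type skin. This was 3.51-fold lower in bitransgenic skin (log2 difference -1.81 ± 0.32, limma adjusted p = 0.0471), and lower in both replicates. With all arrays, Cgn missed the threshold under quantile normalization (adjusted p = 0.0544), a pseudocount of 1 (0.0501), no filter (0.0699) and no intensity trend (0.0570). With the replicate block its adjusted p was 0.0276. Without 1 array in turn, its difference ran from -2.08 without bitransgenic replicate 1 to -1.54 without bitransgenic replicate 2. The member next by p was Pard6g, a subunit of the PAR polarity complex, with 8581.7 and 8813.9 in bitransgenic skin, against 4166.4 and 3785.2 in wild type skin. Its groups were well apart at 2.19-fold higher, but its adjusted p was 0.0608. Tjp1, which codes for the scaffold ZO-1 and was picked after its values were seen, read 2912.4 and 2888.9 in bitransgenic skin, against 3705.7 and 3464.5 in wild type skin (adjusted p = 0.566).

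Of 8 genes whose proteins bind or process claudins, 1 fell and none rose, with a median difference of -0.58. The gene that fell was Lnx1, an E3 ubiquitin ligase reported to remove claudins from junctions. Its signals were 251.4 and 231.8 in bitransgenic skin, against 1489.4 and 1304.7 in wild type skin. This was 5.48-fold lower in bitransgenic skin (-2.45 ± 0.27, limma adjusted p = 0.0127), and a second probe set gave -2.04. Lnx1 missed the threshold when bitransgenic replicate 1 (adjusted p = 0.0588) or bitransgenic replicate 2 (0.0571) was left out, and the adjusted p over all settings tried ran from 0.0054 to 0.0588. Prss8, a membrane-bound serine protease needed for the epidermal barrier in mice, read 839.2 and 546.2 in bitransgenic skin, against 1740.1 and 2511 in wild type skin. Its groups did not overlap (-1.60 ± 0.33), but its adjusted p was 0.0672, and over all settings tried it ran from 0.0291 without wild type replicate 1 to 0.269 without bitransgenic replicate 2.

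None of 9 membrane partners passed, and 2 had an unadjusted p below 0.05, with a median difference of -0.60. These were Ildr1 and Ildr2, angulins that bring tricellulin to the corners where several cells meet. Ildr1 read 33.9 and 86.6 in bitransgenic skin, against 141.3 and 223.0 in wild type skin (adjusted p = 0.202). Ildr2 read 94.6 and 54.6 in bitransgenic skin, against 258.2 and 129.5 in wild type skin (adjusted p = 0.274). Marveld2, the gene of tricellulin and the next gene to Ocln on chromosome 13, was picked after its values were seen. It read 282.4 and 314.9 in bitransgenic skin, against 420.4 and 607.6 in wild type skin (adjusted p = 0.330).

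None of 12 regulators of claudin genes passed, 2 had an unadjusted p below 0.05, and their median difference was 0.14. The 2 were Snai2, a repressor of epithelial junction genes, and Grhl3, a Grainyhead factor of the epidermal barrier. Snai2 read 5005.5 and 6190.4 in bitransgenic skin, against 3503.9 and 3028.2 in wild type skin (0.77 ± 0.24, adjusted p = 0.174) on a probe set of suffix _x_at. Its other measurable probe set read 1073.9 and 1183 in bitransgenic skin, against 680.4 and 1136.3 in wild type skin, a difference of 0.35. Grhl3 read 1206.6 and 1323.4 in bitransgenic skin, against 632.7 and 857.0 in wild type skin (0.77 ± 0.27, adjusted p = 0.230). Of 16 claudin and claudin-like genes outside the 10, 10 lay below the filter, and none of the 6 tested passed. Cldn14, known from the inner ear and kidney, read 60.1 and 56.7 in bitransgenic skin, against 117.4 and 214.9 in wild type skin (adjusted p = 0.200). Cldn22 read 145.7 and 23.1 in bitransgenic skin, against 160.5 and 134.8 in wild type skin (adjusted p = 0.512).

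**Figure D3:**
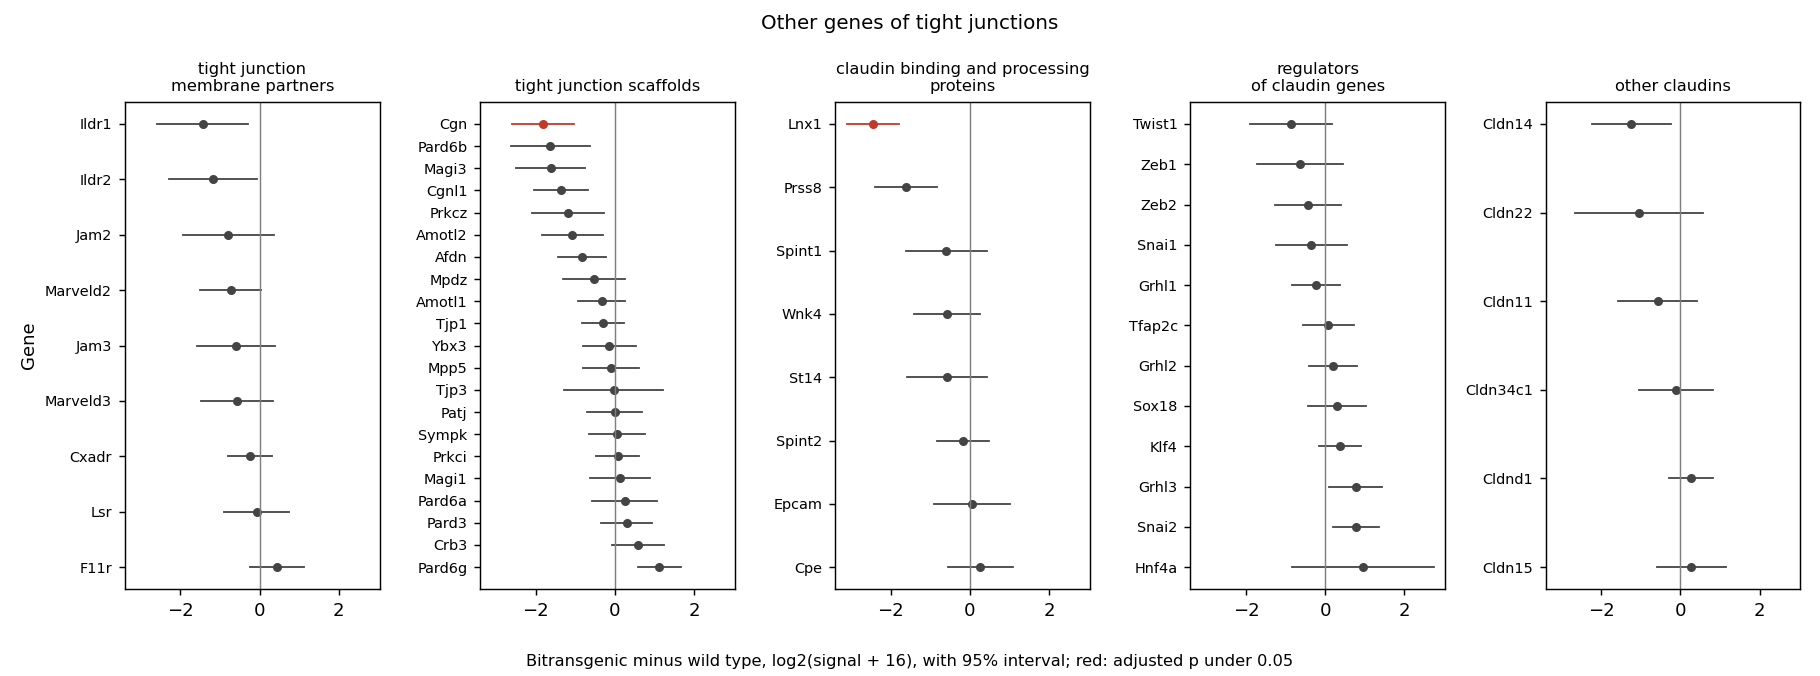
Difference between genotypes in log2(signal + 16), bitransgenic minus wild type, for the 56 other tight junction genes past the filter, in 5 lists by role, with 95% intervals of the limma fit. Red marks the genes with an adjusted p below 0.05 over all genes, which were Cgn and Lnx1.

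The 13 markers of hair shaft and inner root sheath were lower on both bitransgenic arrays without exception, with a median difference of -5.35, and 6 of them passed limma's threshold over all genes. Their summed signal was 1559 and 23318 in bitransgenic skin, against 164055 and 289064 in wild type skin. The bitransgenic arrays thus differed from each other by more than 10-fold in hair markers. Of 6 skeletal muscle markers 5 fell, with a summed signal of 12687 and 16986 in bitransgenic skin, against 153106 and 61575 in wild type skin. The part of either tissue in the claudin differences was not tested.

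Among the epidermal layers, the 7 basal and spinous markers had a median difference of -0.023 and none passed. Their summed signal was 83482 and 121187 in bitransgenic skin, against 92747 and 94501 in wild type skin. Of 7 granular layer markers tested, with a median difference of -0.22, Flg and Casp14 rose and the other 5 did not pass. Of those 5, Ivl (1.35 ± 0.57) was higher on both bitransgenic arrays and Tgm1 overlapped. Lor (-1.15 ± 0.43), Tgm3 (-2.35 ± 0.88) and Cnfn (-1.32 ± 0.30) were lower on both. The granular layer list had a summed signal of 28943 and 30020 in bitransgenic skin, against 26660 and 33342 in wild type skin. Of 7 stress keratinocyte markers Krt6b and S100a9 rose, with a list sum of 85487 and 113445 in bitransgenic skin, against 38361 and 54044 in wild type skin. The 5 tested markers of simple and glandular epithelium, of which none passed, were lower on both bitransgenic arrays, with a median of -1.36. The sums of that list, including 1 dim gene, were 8696 and 9633 in bitransgenic skin, against 21877 and 18048 in wild type skin. Krt77 alone read 8233.4 and 9264.9 in bitransgenic skin, against 20654.9 and 16526.2 in wild type skin. Most of each sum was thus Krt77. The part of these cells in the claudin differences was not tested.

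No marker passed in the lists of sebaceous gland, Langerhans cells, Schwann cells or fat cells, with median differences of -0.093, 0.91, -1.01 and -1.09. The summed signal of the Langerhans cell list was 16697 and 34234 in bitransgenic skin, against 17338 and 10446 in wild type skin. In that list Cd74, H2-Aa and H2-Ab1 had differences of 0.93, 0.96 and 0.91, but Cd207 and Cd1d1 had -0.14 and -0.28. The summed signal of the fat cell list was 21395 and 28014 in bitransgenic skin, against 45775 and 45458 in wild type skin. For Schwann cells the sums were 5527 and 8467 in bitransgenic skin, against 19224 and 12761 in wild type skin, and for the sebaceous gland they were 45599 and 21608 in bitransgenic skin, against 32529 and 27927 in wild type skin.

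**Figure D4:**
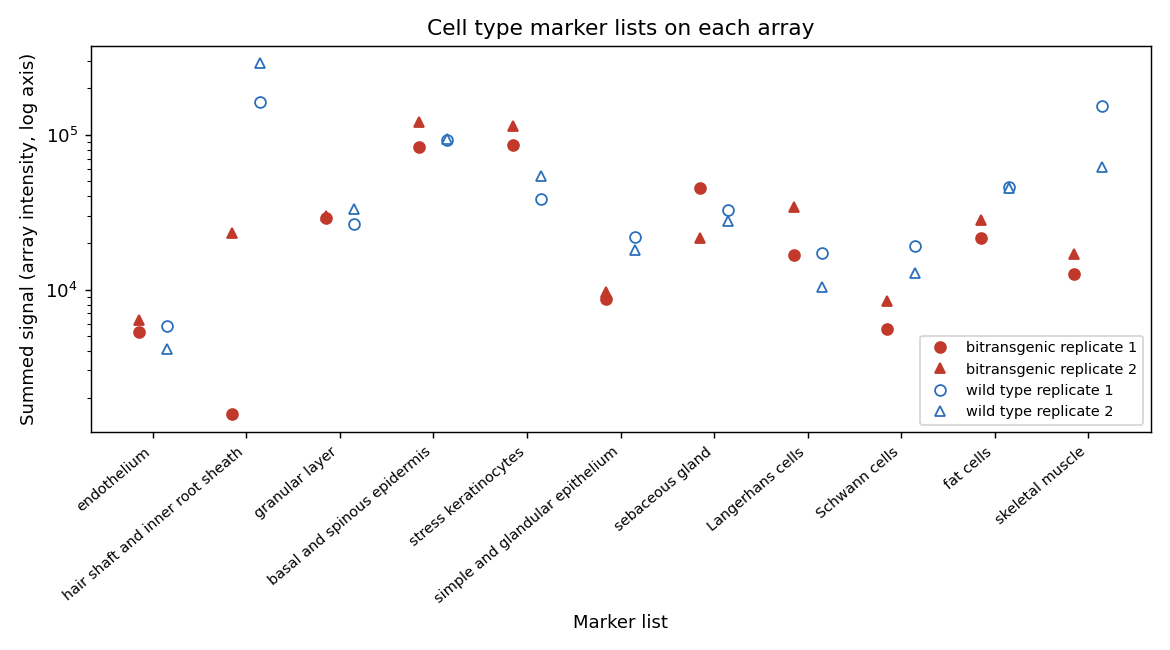
Summed signal of each cell type marker list on each array, on a log axis in units of array intensity, with bitransgenic arrays in filled red and wild type arrays in open blue symbols. The sums of hair, skeletal muscle, stress keratinocyte, simple and glandular epithelium, Schwann cell and fat cell markers lie apart by genotype. Those of endothelium, granular layer, basal and spinous epidermis, sebaceous gland and Langerhans cells overlap. Most of each simple and glandular epithelium sum is Krt77.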

How the data were processed

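Probe set signals of 4 arrays were used as deposited by the authors, as intensity values on a linear scale. The authors used MAS5 and affy, per the submitters' processing notes, with versions not stated there. Trimming 2% of probe sets from either end left array means from 499.5 to 500.0. The platform annotation gave 34945 probe sets a single symbol, 932 several and 9160 none, and 34741 of those with a single symbol matched RefSeq (GRCm38.p6) by Entrez identifier.

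Signals were transformed as log2(signal + 16). Probe sets at or above the 40th percentile of the mean were kept, and the kept probe set of highest mean stood for its gene. The test was that of limma 3.58.1 under R 4.3.3 (lmFit, eBayes with intensity trend), with Benjamini-Hochberg adjustment over 13070 genes and a threshold of 0.05. The fit had 2 residual degrees of freedom, so the number of arrays limits precision. The script was tested on simulated data. Genes of the pathway lists were named if past the threshold or among the 2 with the smallest p of their list. Genes like a claudin in pattern were named for the claudins with the highest and the lowest difference. The members and lists were chosen with earlier results of these data known. Listed genes with no probe set of their own symbol were not analysed here. Cldnd1 and Tmem114 were matched through the synonyms Cldn25 and Cldn26, and Mpp5 through Pals1. Alternatives covered normalization, pseudocount, filter, choice of probe set, blocks, variance prior and each array left out.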

Additional observations from a re-analysis of the deposited data

How the results depend on the processing

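Counts of genes called with limma rested on few arrays. Without 1 array in turn, they ran from 22 to 314 higher and from 96 to 635 lower, and the junction genes that fell from 0 to 2. The median difference of the claudins and occludin ran from -1.37 without wild type replicate 1 to -0.43 without bitransgenic replicate 1. With no filter, 52 genes were higher, 132 lower, and 1 junction gene fell. Quantile normalization, a pseudocount of 1 and no intensity trend also each left 1 junction gene. With sex as a block 348 genes were lower. With the replicate block, 207 genes were higher and 438 lower, as were 1 and 5 junction genes, with Pard6g (adjusted p = 0.0297) the one that was higher and Prss8 (0.0496) among those lower. The labels state nothing that same-numbered arrays share beyond the number, although deviations of same-numbered arrays correlated at 0.336. The Bacillus control probe sets also split by number. Their means were 1528 (wild type) and 1598 (bitransgenic) in replicate 1, against 328 (wild type) and 465 (bitransgenic) in replicate 2. The source of this split was not tested.

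Over 15 alternatives, the differences of Cldn3 (-4.02 to -3.01), Cldn23 (-2.95 to -2.42), Cldn8 (-1.90 to -0.43) and Cldn12 (-1.07 to -0.26) kept their sign, as did that of Cldn10 over 14 (-2.60 to -1.72). That of Cldn1 changed sign under 3, and those of Cldn4, Cldn5 and Ocln under 1 each. The filter settings, the blocks and the fit without intensity trend could not alter these differences. Only the remaining alternatives therefore bear on the signs. Cldn10 had no value once _x_at and _s_at probe sets were dropped.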
